A study of Tachysurus fulvidraco x Tachysurus vachelli with 9 samples.

Results

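Gene expression at the end of simulated transport (Str) was compared with that after 96 h of recovery (Rec) in the intestine of a hybrid catfish, the cross of a Tachysurus fulvidraco female with a P. vachellii male. The 3 Str fish were sampled after 16 h in transport bags on a shaker. The 3 Rec fish went through the same 16 h of transport and were then kept for 96 h under the conditions of the control fish. The 3 Ctrl fish were untreated. RNA-seq of the posterior intestine gave 1 library for each of the 9 fish, and 17244 of the 26163 genes in the deposited table reached 1 FPKM (a level corrected for transcript length and library size) in at least 3 of the 9 libraries. These 17244 genes were compared between the 3 Rec and the 3 Str libraries. Food was withheld before transport. Feeding during recovery was not given in the sources used here, so recovery from transport and any return of food cannot be told apart.

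The fish intestine is lined by enterocytes, which cut peptides, starch and lipids at their brush border, take up the products, rebuild triacylglycerol and ship it in apolipoprotein-coated particles. The lining is renewed by dividing cells at the base of its folds, and it houses lymphocytes and macrophages. Cortisol, released in stress and in fasting, acts through the glucocorticoid receptor on genes of fuel choice, protein breakdown and inflammation in many vertebrate tissues.

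The 9 libraries held 48605412 to 73110636 counts (48605412 to 60279138 in Str and 54829614 to 73110636 in Rec). The Rec fish differed more among themselves than the others, with a median SD of 0.553 per gene on the log2 scale (library-size-scaled counts), against 0.406 in Str and 0.389 in Ctrl. In bulk tissue, fewer cells of a type and less RNA per cell cannot be told apart. Enterocyte markers were present in every library, with a summed level of 1934 to 3025 FPKM in Str and 9898 to 11490 FPKM in Rec (4343 to 8138 FPKM in Ctrl), and 5 of the 8 markers tested were called higher in Rec (none without Str-3, 1 without Ctrl-3 or Rec-2, 2 without Str-1 and 3 without Ctrl-2, Str-2 or Rec-1). The enterocyte markers not called were villin-1, vil1 (97.97 to 119.9 FPKM in Str, 113.4 to 419 FPKM in Rec), an alkaline phosphatase-like gene and an aminopeptidase N gene (LOC113652607). The enterocyte list shares fabp2 and aminopeptidase N genes with the uptake lists below. Smooth muscle markers summed to 5340 to 30270 FPKM in Str and 12180 to 21330 FPKM in Rec, with none of 13 called. Exocrine pancreas markers (11.98 to 15.8 FPKM in Str, 14.96 to 23.5 FPKM in Rec) were low in both groups. The part that any change in cell makeup has in the values below was not tested.

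In the Rec vs. Str comparison, 868 genes were up-regulated (5.03% of those tested) and 709 were down-regulated (4.11%) at an adjusted p below 0.05 in edgeR's quasi-likelihood test. The median log2 fold change over all genes was 0.03. The up-regulated genes made up 55% of the calls with TMM scaling of the counts and 41.8% with limma on log2(FPKM + 1), where the median of all genes moved to -0.09 (-0.12 on log2(FPKM + 0.1)). The number of calls rested on single libraries. It fell from 1577 to 247 without Str-3, to 479 without Rec-2, to 696 without Str-1, to 830 without Str-2 and to 949 without Ctrl-3. Each of the 1577 genes kept the direction of its fitted change whichever library was left out. The Str and Rec fish did not overlap in 862 of the 868 rises and 708 of the 709 falls, so a change of direction was hardly possible. The call itself was kept with each of the 9 libraries left out in turn by 102 of the up-regulated and 117 of the down-regulated genes, and these are called stable below. For most of the others the largest adjusted p met on leaving out 1 library is given.

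**Figure D1:**
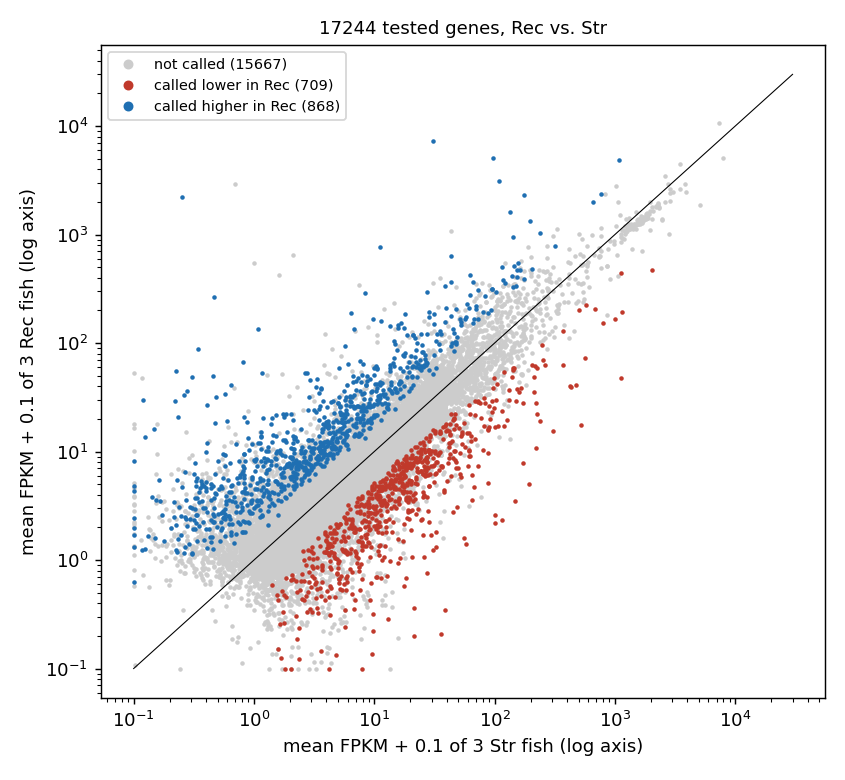
Mean level of each of the 17244 tested genes in the 3 Str fish (x axis, FPKM + 0.1, log axis) and the 3 Rec fish (y axis, same scale). The 868 genes called higher in Rec lie above the line of equal levels and the 709 called lower lie below it, while 15667 genes were not called.

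A gene was counted as switched on when it lay below 1 FPKM in all 3 Str fish and at 5 FPKM or more in all 3 Rec fish, and as switched off in the reverse case. There were 16 table rows switched on and 17 switched off. Of the 16 on, 14 were at 1 FPKM or more in every Ctrl fish, and of the 17 off, 8 were under 1 FPKM in every Ctrl fish. The most abundant switched-on gene was apolipoprotein A-II (LOC113649718), a component of lipoprotein particles, at 0.462, 0 and 0 FPKM in Str and 1489.6, 4524 and 669 FPKM in Rec (log2 fold change 13.97 ± 2.69, adjusted p = 0.018). Because its Str levels were at or near 0 FPKM, the size of this fold is uncertain. Its Ctrl level, 1.96 to 108 FPKM, lay between the groups. Another was a membrane-associated phospholipase B1 (LOC113644521), a brush border lipase, at 0.055 to 0.52 FPKM in Str and 44.2 to 124 FPKM in Rec (log2 fold change 8.63 ± 1.40, adjusted p = 0.012). Lactase-phlorizin hydrolase (LOC113654132), a brush border disaccharidase, was at 0.121, 0.235 and 0 FPKM in Str and 43.5, 37.1 and 6.64 FPKM in Rec (log2 fold change 8.06 ± 1.59, adjusted p = 0.02). That the groups did not overlap in these genes follows from the rule for a switch and is no separate support. None of the 3 calls was stable (adjusted p up to 0.075, 0.057 and 0.064).

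Among the genes switched off were lpin1, which makes diacylglycerol and acts with regulators of fat oxidation, and betaine-homocysteine S-methyltransferase 1 (LOC113646449), which remakes methionine. A somatostatin receptor (LOC113663678) met the rule on 1 of its 2 tested table rows. That row was at 8.07, 7.03 and 12.9 FPKM in Str and 0.791, 0.0795 and 0.678 FPKM in Rec (adjusted p = 0.025). The level of lpin1 was 16.3, 20.8 and 15.3 FPKM in Str and 0.593, 0.496 and 0.348 FPKM in Rec (log2 fold change -5.05 ± 0.48, adjusted p = 0.0039), a stable call, and its Ctrl fish were at 0.379 to 1.08 FPKM. The methyltransferase stood at 11.3, 9.94 and 7.99 FPKM in Str and 0.216, 0.078 and 0.065 FPKM in Rec (log2 fold change -6.20 ± 0.59, adjusted p = 0.0039), also stable. A tenascin (LOC113656494), a matrix protein, met the rule on 1 of its 2 table rows. Its more abundant row was at 94.2, 52.8 and 117 FPKM in Str and 8.28, 2.59 and 4.22 FPKM in Rec (log2 fold change -4.03 ± 0.72, adjusted p = 0.014, up to 0.0551 with a library left out). Of the rows that switched, 15 of the 16 on and 12 of the 17 off passed the test, and lcat, which esterifies cholesterol in plasma, was among those off that did not (5.54 to 15.98 FPKM in Str, 0.057 to 0.771 FPKM in Rec, adjusted p = 0.0528).

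Some genes for the uptake and packaging of fat were higher in Rec. Of 22 table rows in a list of intestinal lipid handling, 2 of them of dgat2, 11 were up-regulated and 1 down-regulated, with a median log2 fold change of 1.98 against 0.03 over all genes. The 11 became 3 without Str-3, 6 without Rec-2 and 7 without Str-1 or Str-2. Cytosolic fatty acid-binding proteins, which carry fatty acids from the brush border, were among the most abundant of them. The transcript level of fabp2 was 199, 95.5 and 109 FPKM in Str and 1250.3, 1133 and 2491 FPKM in Rec (log2 fold change 3.68 ± 0.55, adjusted p = 0.0091). That of fabp1 was 182, 253 and 93.8 FPKM in Str and 1239, 2639 and 3132 FPKM in Rec (log2 fold change 3.84 ± 0.66, adjusted p = 0.013). Every Rec fish lay above every Str fish in both genes, and Rec-3 was the highest. The call of fabp1 was lost without Str-3 (adjusted p = 0.057), as was that of fabp2 (0.05001).

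Some enzymes that rebuild triacylglycerol rose. The level of dgat2, which adds the last fatty acid, was 0.501, 0.272 and 0.376 FPKM in Str and 28.9, 54.9 and 11.3 FPKM in Rec (log2 fold change 6.55 ± 0.86, adjusted p = 0.0078), and it was stable. Monoacylglycerol acyltransferase 2 (LOC113650341), the first step of resynthesis in enterocytes, rose (9.72 to 20.02 FPKM in Str, 52.6 to 71.2 FPKM in Rec, log2 fold change 2.30 ± 0.34, adjusted p = 0.009), also stable. The fatty acid translocase cd36 was at 40.2, 46.7 and 31.2 FPKM in Str and 324, 149.6 and 154 FPKM in Rec (log2 fold change 2.51 ± 0.42, adjusted p = 0.013), with Ctrl fish at 131 to 229 FPKM. Its call was lost without Str-3 (adjusted p = 0.058). Other genes of these enzymes did not pass. A DGAT2-like gene (LOC113641502) was at 39.3, 77.6 and 63.3 FPKM in Str and 25.2, 33.7 and 93.8 FPKM in Rec (adjusted p = 0.86), and a monoacylglycerol acyltransferase 2-A-like gene (LOC113646111) had an adjusted p of 0.41. Neither DGAT1-like LOC113644625 (adjusted p = 0.11) nor DGAT1 (LOC113648068), the unrelated enzyme of the last step, passed (14.6 to 28.1 FPKM in Str and 20.97 to 68.8 FPKM in Rec for DGAT1, adjusted p = 0.15).

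Some apolipoproteins rose. The level of apoc1, a small exchangeable apolipoprotein, was 42.3, 21.01 and 28.5 FPKM in Str and 3579.9, 17705 and 372 FPKM in Rec (log2 fold change 8.15 ± 1.53, adjusted p = 0.017), so the 3 Rec fish spanned a wide range of their own, with Rec-2 far above Rec-3. Apolipoprotein Eb (LOC113641340) was at 63.6, 173 and 91.3 FPKM in Str and 3045, 5035 and 1328 FPKM in Rec (log2 fold change 5.02 ± 0.68, adjusted p = 0.0082). Its call was stable. The structural apolipoprotein B-100 (LOC113655586) passed the test although the groups overlapped, with 110.4, 63.9 and 42.6 FPKM in Str and 395, 426 and 106 FPKM in Rec (adjusted p = 0.049, up to 0.16 with a library left out). Another apolipoprotein B-100 gene (LOC113659499) was at 25.1 to 34.6 FPKM in Str and 24.7 to 52.7 FPKM in Rec and did not pass (adjusted p = 0.46). The apolipoprotein A-I-like genes LOC113651712 (56.2 to 139 FPKM in Str, 180.0 to 417 FPKM in Rec, adjusted p = 0.085) and a locus that merges LOC113644437, LOC113646910 and LOC113646905 (179.6 to 291 FPKM in Str, 346 to 525 FPKM in Rec, adjusted p = 0.12) did not pass either. An apolipoprotein A-I-2-like gene (LOC113652857) did pass, at 0, 0 and 0.057 FPKM in Str and 2.68, 84.1 and 2.76 FPKM in Rec (adjusted p = 0.018). Its Rec-2 level was far above those of the other Rec fish. The apolipoprotein B loading factor mttp lay just above the threshold (7.64 to 20.6 FPKM in Str, 17.7 to 94.3 FPKM in Rec, adjusted p = 0.0509). Retinol-binding protein 2 (LOC113653746), which holds absorbed vitamin A in enterocytes, rose (6.17 to 16.7 FPKM in Str, 337 to 1078 FPKM in Rec, log2 fold change 6.27 ± 1.02, adjusted p = 0.012). Leaving out 1 library ended the calls of apoc1 (adjusted p up to 0.077) and of retinol-binding protein 2 (0.056, without Str-3).

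The 1 member of the lipid list that fell was plin2, which coats lipid droplets. It was at 22.4, 74.3 and 45.000 FPKM in Str and 7.5, 7.73 and 14.6 FPKM in Rec (log2 fold change -2.17 ± 0.45, adjusted p = 0.023, up to 0.076 with a library left out). Another lipid droplet protein, g0s2, an inhibitor of adipose triglyceride lipase in mammals, was at 53.1, 77.4 and 43.2 FPKM in Str and 3.15, 0.647 and 0.079 FPKM in Rec (log2 fold change -5.37 ± 1.35, adjusted p = 0.041, up to 0.12). An acyl-CoA desaturase (LOC113639949), which makes monounsaturated fatty acids, fell (16.6 to 21.9 FPKM in Str, 1.58 to 4.46 FPKM in Rec, log2 fold change -2.69 ± 0.40, adjusted p = 0.0087) and was stable. In all 3 genes every Rec fish lay below every Str fish, as in 708 of the 709 falls.

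**Figure D2:**
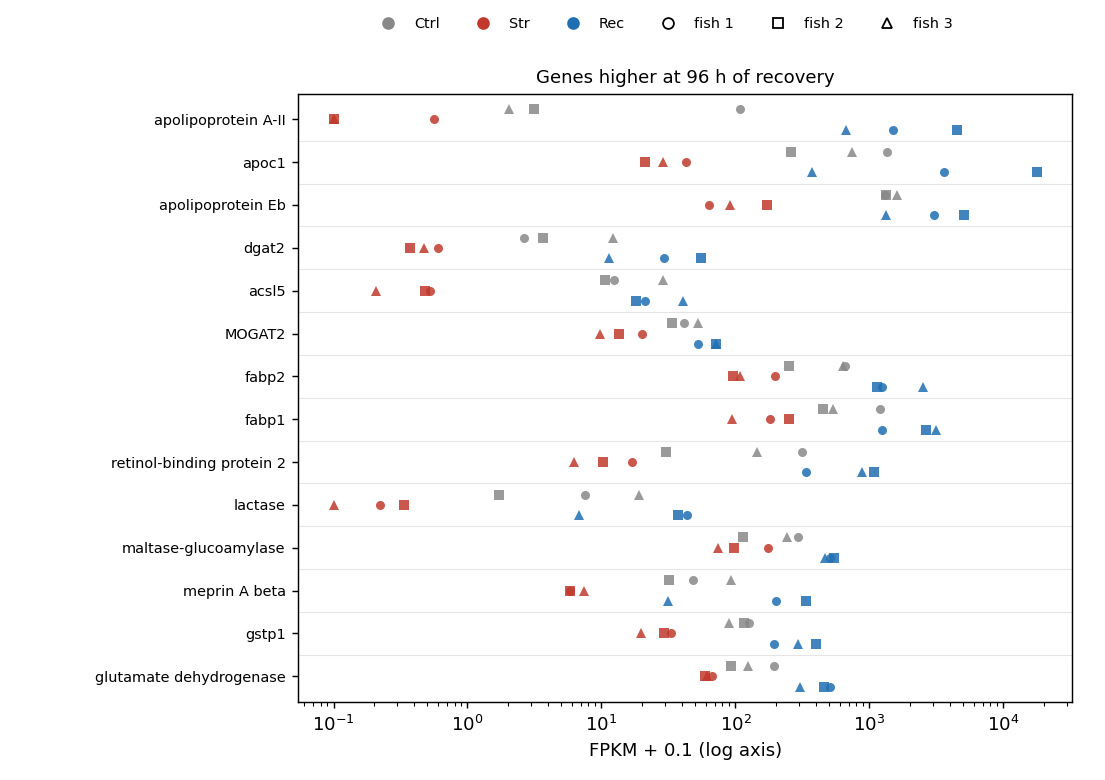
Level of 14 genes in each fish (x axis, FPKM + 0.1, log axis), with colours for Ctrl, Str and Rec and symbols for the fish of each group. In each of these genes every Rec fish lies above every Str fish, and the Rec fish of apoc1 range from 372 to 17705 FPKM.

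Some brush border peptidases and amino acid transporters were also higher in Rec. Of 14 table rows in a list of peptide and amino acid uptake, 2 of them of LOC113659315, 8 were up-regulated and none down-regulated (median log2 fold change 2.16), and the KEGG list of protein digestion and absorption had 13 of 89 up-regulated and 7 down-regulated. Without Str-3 these counts were 0 of 14 and 1 of 89, and without Rec-2 they were 2 and 7. Without Str-1 they were 2 and 6, and without Ctrl-2, Ctrl-3, Str-2 or Rec-1 the 8 became 4 or 5. Meprin A beta (LOC113664000), a brush border metalloprotease, was at 5.68, 5.76 and 7.32 FPKM in Str and 201, 336 and 31.5 FPKM in Rec (log2 fold change 5.13 ± 0.87, adjusted p = 0.013). Glutamyl aminopeptidase, enpep, was at 108, 171 and 183 FPKM in Str and 343, 295 and 778 FPKM in Rec (log2 fold change 1.68 ± 0.40, adjusted p = 0.033), and a sodium-dependent neutral amino acid transporter (LOC113633992) at 18.2, 13.05 and 9.14 FPKM in Str and 256, 127 and 50.003 FPKM in Rec (log2 fold change 3.55 ± 0.80, adjusted p = 0.029). None of these 3 calls was stable (adjusted p up to 0.057, 0.098 and 0.11). The peptide transporter SLC15A1, read from a locus that merges a pair of genes, was at 31.9, 48.1 and 20.98 FPKM in Str and 336, 264 and 47.7 FPKM in Rec, with Rec-3 inside the Str range, and did not pass (adjusted p = 0.065).

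A different set of amino acid carriers fell. Y+L amino acid transporter 2 (LOC113644022), a basolateral exchanger in mammals, was at 9.78, 12.3 and 16.3 FPKM in Str and 1.25, 0.237 and 0.373 FPKM in Rec (log2 fold change -4.27 ± 0.62, adjusted p = 0.0083). Its partner chain 4F2 (LOC113646906) was at 27.1, 28.4 and 28.2 FPKM in Str and 4.06, 4.48 and 9.59 FPKM in Rec (log2 fold change -2.13 ± 0.35, adjusted p = 0.012). Both calls were stable, and the Ctrl fish lay at 0.797 to 1.94 FPKM and 3.88 to 9.27 FPKM.

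Some enzymes and carriers of sugar and minerals rose. In the KEGG list of carbohydrate digestion and absorption 2 of 14 genes were up-regulated (1 without Str-1, Str-3 or Rec-2) and none down-regulated, with a median log2 fold change of 0.48. Maltase-glucoamylase (LOC113659427), which ends starch digestion, was at 175, 97.9 and 74.1 FPKM in Str and 512, 539 and 464 FPKM in Rec (log2 fold change 2.26 ± 0.51, adjusted p = 0.03). The sugar transporter slc5a9 was at 16.996, 16.3 and 11.3 FPKM in Str and 37.05, 38.8 and 35.9 FPKM in Rec (log2 fold change 1.45 ± 0.31, adjusted p = 0.026). Neither call was stable (adjusted p up to 0.11 and 0.1). The stable calls were slc37a4, which moves glucose-6-phosphate into the endoplasmic reticulum (1.4 to 2.93 FPKM in Str, 13.02 to 18.7 FPKM in Rec, log2 fold change 2.90 ± 0.38, adjusted p = 0.0077), and the zinc importer slc39a5 (0.722 to 1.54 FPKM in Str, 9.34 to 10.9 FPKM in Rec, log2 fold change 3.14 ± 0.36, adjusted p = 0.0067). In the KEGG list of mineral absorption 9 of 63 genes were up-regulated (2 without Str-1, Str-3 or Rec-2, and 5 without Str-2), 2 down-regulated and 52 not called. The metalloreductase steap4 was lower, at 37.05, 21.6 and 38.1 FPKM in Str and 1.97, 0.789 and 0.882 FPKM in Rec (log2 fold change -4.62 ± 0.48, adjusted p = 0.0039, stable).

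Some genes of fatty acid oxidation rose. In the KEGG fatty acid degradation list 16 of 62 genes were up-regulated (25.8%) and none down-regulated, with a median log2 fold change of 1.03, and in the peroxisome list 19 of 127 were up-regulated (5 without Str-3, 8 without Rec-2 and 11 without Str-1) and 3 down-regulated. In the GO class acyl-CoA dehydrogenase activity, 7 of 15 genes were up-regulated (1 without Str-3, 2 without Str-2 or Rec-2, 3 without Str-1 or Rec-3 and 4 without Ctrl-3). An acyl-CoA dehydrogenase (LOC113661428), of the first step of beta-oxidation, was at 6.64, 6.57 and 3.81 FPKM in Str and 18.3, 26.01 and 35.6 FPKM in Rec (log2 fold change 2.33 ± 0.34, adjusted p = 0.0083, stable). The peroxisomal oxidase acox3 was at 4.01, 5.1 and 2.76 FPKM in Str and 9.26, 15.8 and 29.2 FPKM in Rec (log2 fold change 2.27 ± 0.40, adjusted p = 0.014), with the call lost without Str-3 (adjusted p = 0.06). The peroxisomal flavoenzyme dao, which oxidizes D-amino acids, was at 17.2, 19.3 and 10.7 FPKM in Str and 137, 130.2 and 169 FPKM in Rec (log2 fold change 3.31 ± 0.44, adjusted p = 0.0081, stable). Fatty acid degradation had 2 up-regulated genes without Str-3, 7 without Rec-2 and 8 without Str-1.

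Genes of the respiratory chain gave few calls. The oxidative phosphorylation list had a median log2 fold change of 0.69 over 131 genes, yet 1 gene was up-regulated, cytochrome c oxidase subunit 5B (LOC113652996, 363, 316 and 277 FPKM in Str and 589.8, 769 and 1005 FPKM in Rec, log2 fold change 1.41 ± 0.34, adjusted p = 0.037, up to 0.14 with a library left out). With Rec-1 left out 32 of the 131 were up-regulated, and with Ctrl-3, any Str fish, Rec-2 or Rec-3 left out none was. Without Rec-3 the median was 0.30. Of the 3 down-regulated members, dnttip2 is a nucleolar factor, another is a pentatricopeptide repeat protein (LOC113640599), and the third is a V-type proton ATPase subunit (LOC113662444).

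The largest share of up-regulated genes in any KEGG pathway of 10 to 500 tested genes was in xenobiotic metabolism by cytochrome P450, with 18 of 37 (48.6%) up-regulated and 1 down-regulated (median log2 fold change 1.31). These are enzymes that oxidize, conjugate and clear foreign compounds and reactive aldehydes. The 18 held 8 glutathione S-transferases, 2 UDP-glucuronosyltransferases, 5 dehydrogenases and 1 cytochrome P450. Another, LOC113656322, is annotated as a TRAF3-interacting JNK-activating modulator, which is no such enzyme. The count of 18 was 4 without Str-3, 6 without Rec-2, 8 without Str-1 and 10 without Str-2. The level of gstp1, a glutathione S-transferase, was 32.9, 29.4 and 19.7 FPKM in Str and 193, 399.8 and 293 FPKM in Rec (log2 fold change 3.58 ± 0.44, adjusted p = 0.0072). Its microsomal relative mgst1 was at 9.08, 8.39 and 5.11 FPKM in Str and 31.2, 20.1 and 57.8 FPKM in Rec (log2 fold change 2.33 ± 0.37, adjusted p = 0.011). The epoxide hydrolase ephx1 was at 14.2, 11.9 and 10.5 FPKM in Str and 33.9, 30.2 and 36.3 FPKM in Rec (log2 fold change 1.57 ± 0.24, adjusted p = 0.009). These 3 calls were stable, and the groups did not overlap, as in 862 of the 868 rises. The glucuronosyltransferase ugt1a1 rose (1.22 to 2.73 FPKM in Str, 5.66 to 13.7 FPKM in Rec, log2 fold change 2.49 ± 0.47, adjusted p = 0.017, up to 0.072), as did the aldehyde dehydrogenase aldh2 (34.8 to 49.2 FPKM in Str, 140.4 to 225 FPKM in Rec, log2 fold change 2.17 ± 0.39, adjusted p = 0.014, 0.064 without Str-3). The glutathione metabolism list had 12 of 54 up-regulated (2 without Str-3 or Rec-2, 3 without Str-1 and 7 without Str-2) and 3 down-regulated, and retinol metabolism 8 of 59 and 2. The 8 became none without Str-3, 1 without Rec-2, 3 without Str-1 and 5 without Ctrl-2 or Str-2. The retinal reductase dhrs3, which turns retinal back to retinol, fell (40.6, 44.7 and 50.7 FPKM in Str, 9.77, 9.03 and 6.86 FPKM in Rec, log2 fold change -2.27 ± 0.27, adjusted p = 0.0072, stable).

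**Figure D3:**
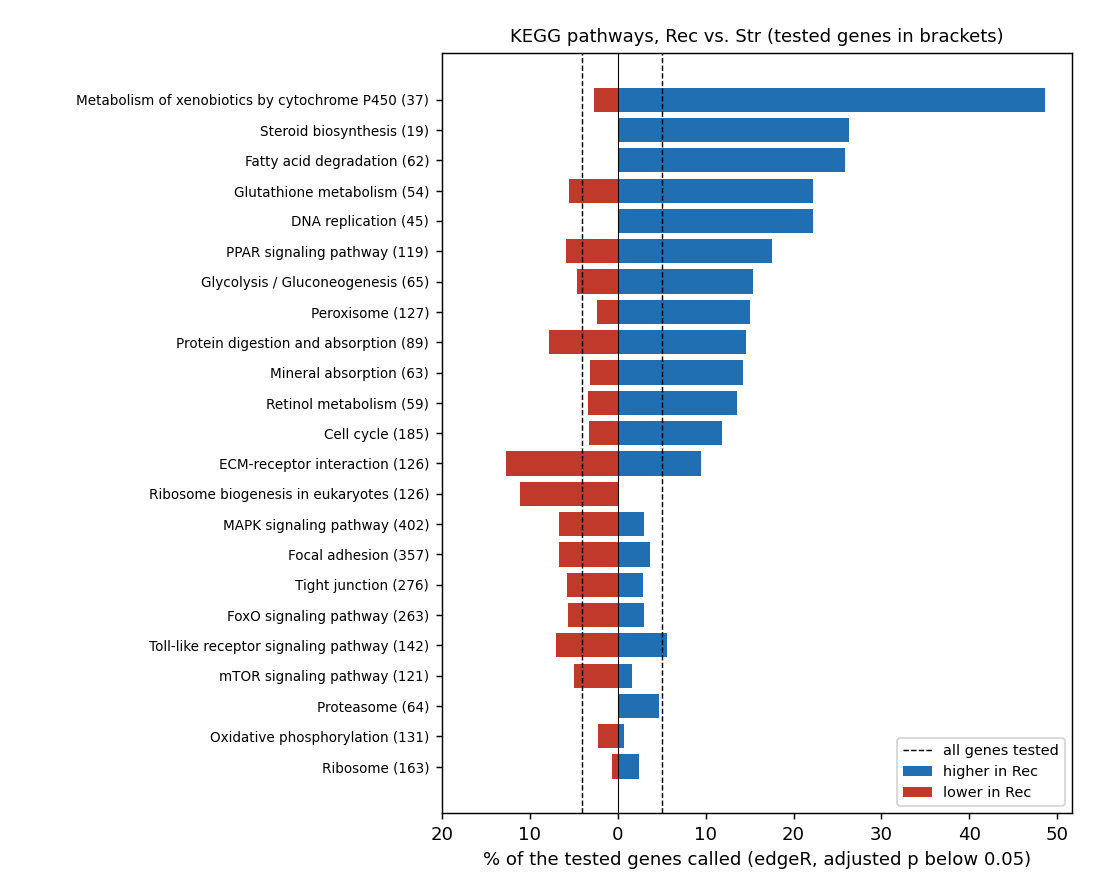
Share of the tested genes of 23 KEGG pathways called higher in Rec (right, %) and lower in Rec (left, %), with the number of tested genes in brackets and dashed lines at the shares over all genes (5.03% and 4.11%). Xenobiotic metabolism reached 48.6% on the right and ECM-receptor interaction 12.7% on the left, while oxidative phosphorylation and ribosome stayed under both lines.

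Genes of sterol synthesis differed among the Rec fish. In the KEGG steroid biosynthesis list 5 of 19 genes were up-regulated and none down-regulated, with a median log2 fold change of 2.08 that was 0.95 without Rec-3. The 5 became 9 without Rec-1, 1 without Str-3 and 3 without Str-1, Str-2 or Rec-2. The late enzyme dhcr7 was at 16.8, 24.1 and 21.5 FPKM in Str and 85.3, 66.7 and 205 FPKM in Rec (log2 fold change 2.57 ± 0.38, adjusted p = 0.0088, stable), and the first committed enzyme fdft1 at 7.78, 6.45 and 6.42 FPKM in Str and 17.2, 11.4 and 21.6 FPKM in Rec (log2 fold change 1.37 ± 0.23, adjusted p = 0.013, 0.057 without Str-3). In these genes all 3 Rec fish lay above Str. In hmgcs1, an early enzyme of the pathway, the Rec fish were at 2.94, 1.77 and 182 FPKM beside 3.85, 3.26 and 4 FPKM in Str. Rec-3 alone was high, and the gene did not pass the test (adjusted p = 0.11). The isomerase ebp was at 1.31, 0.45 and 1.18 FPKM in Str and 6.35, 19.2 and 379 FPKM in Rec (log2 fold change 7.09 ± 1.53, adjusted p = 0.026, up to 0.1 with a library left out).

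Other genes also set the Rec fish apart from each other. The chaperone genes hsp90b1 and hspd1, chosen after their values were seen, were far higher in Rec-3 than in the other Rec fish. The level of hsp90b1 was 20.9, 16.5 and 320.5 FPKM in Rec and 8.58 to 13.02 FPKM in Str, so Rec-1 and Rec-2 also lay above Str. That of hspd1 was 4.67, 7.75 and 84.3 FPKM in Rec and 18.1 to 20.8 FPKM in Str, so Rec-1 and Rec-2 lay below Str. Neither gene passed (adjusted p = 0.064 and 0.65). The ileal bile acid-binding protein fabp6 was at 31.6, 193 and 65.2 FPKM in Str and 2515, 512 and 12067 FPKM in Rec (log2 fold change 5.68 ± 1.48, adjusted p = 0.0449, up to 0.16). Its membrane partner slc10a2, which takes up bile acids in the distal intestine, was at 1.86, 16.2 and 60.1 FPKM in Str and 85.1, 3.72 and 394 FPKM in Rec (adjusted p = 0.29). The endocytic receptor genes amn (0.029, 32.3 and 11.3 FPKM in Str, 22.5, 0.818 and 1.83 FPKM in Rec) and cubn (0, 10.95 and 5.61 FPKM in Str, 4.86, 0.082 and 0.025 FPKM in Rec), which mark lysosome-rich enterocytes of the posterior gut in zebrafish, varied as widely within a group as between groups. A list of 6 tested genes of posterior enterocytes joined the bile acid genes fabp6 and slc10a2 to amn, cubn and disabled homolog 2 genes. Of these 6, 1 was up-regulated, fabp6, which is not one of the endocytic genes, and 1 down-regulated. The latter was a disabled homolog 2 gene (LOC113637659), at 23.4, 21.6 and 52.5 FPKM in Str and 7.8, 3.98 and 6.96 FPKM in Rec (log2 fold change -2.28, adjusted p = 0.013). Its call was lost without Rec-2. The other disabled homolog 2 gene of the list (LOC113655157) did not pass (adjusted p = 0.89). It was at 4.04, 34.9 and 22.03 FPKM in Str and 40.6, 2.78 and 2.96 FPKM in Rec. The part that the sampled stretch of intestine has in these values was not tested.

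**Figure D4:**
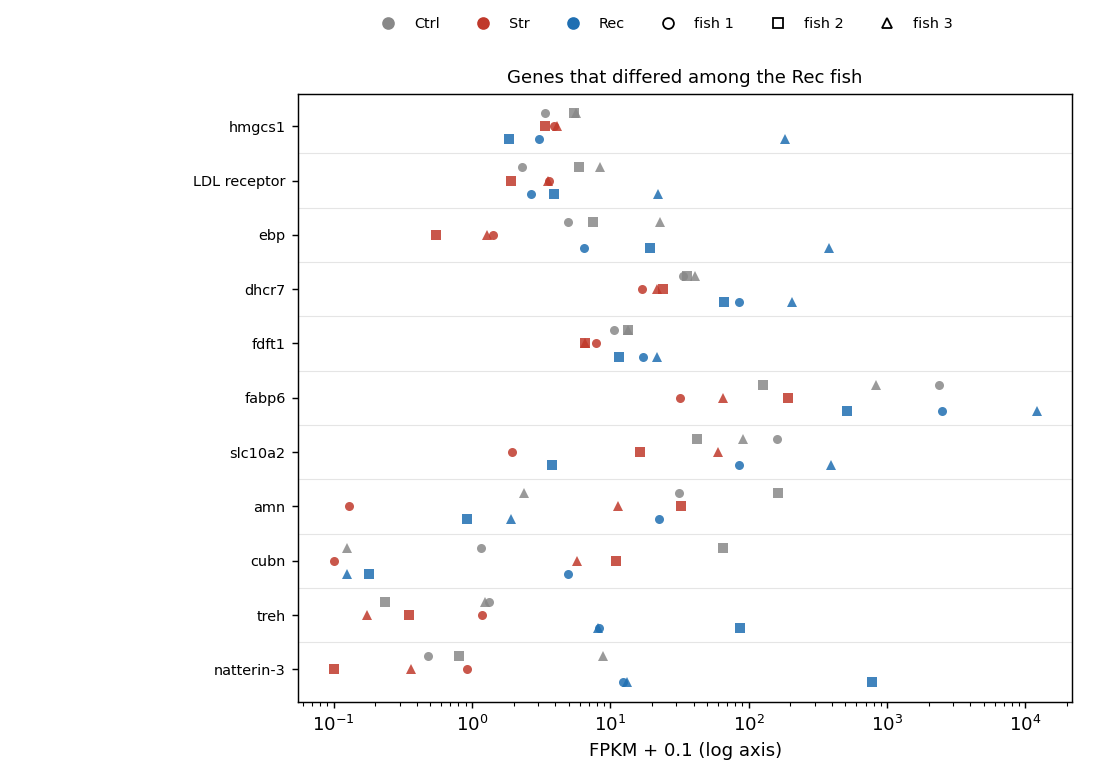
Level of 11 genes in each fish (x axis, FPKM + 0.1, log axis), with colours for Ctrl, Str and Rec and symbols for the fish. In hmgcs1, where the Rec fish are at 2.94, 1.77 and 182 FPKM, the triangle of Rec-3 stands alone, and the square of Rec-2 stands above the other Rec fish in treh and natterin-3.

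Some cell division genes rose. In a list of 13 cell cycle genes, 10 were up-regulated and none down-regulated, with a median log2 fold change of 3.59, and in the KEGG cell cycle list 22 of 185 were up-regulated and 6 down-regulated, with 157 not called and a median of 0.17. Without Str-3 these counts of rises were 3 and 3, and without Str-1 they were 4 and 7, while Str-2 or Rec-2 left out gave 7 and 11. The 3 of the 13 that did not pass were pcna, a clamp of the replication fork (20.5 to 25.2 FPKM in Str, 28.2 to 85.8 FPKM in Rec, adjusted p = 0.073), and the licensing factor genes mcm7 (adjusted p = 0.56) and LOC113647952 (adjusted p = 0.18). The mitotic activator cdc20 was at 0.35, 0.768 and 0.234 FPKM in Str and 6.09, 18.9 and 3.45 FPKM in Rec (log2 fold change 4.58 ± 0.80, adjusted p = 0.013), and cyclin B1, ccnb1, was at 0.112, 1.01 and 0.076 FPKM in Str and 4.47, 14.6 and 5.37 FPKM in Rec (log2 fold change 4.47 ± 1.04, adjusted p = 0.032). Neither was stable (adjusted p up to 0.059 and 0.096). Cyclin D1, ccnd1, of the entry into the cycle, was at 5.5, 4.38 and 6.14 FPKM in Str and 16.1, 9.37 and 18.6 FPKM in Rec (log2 fold change 1.55 ± 0.26, adjusted p = 0.013) and was stable. In the GO class spindle microtubule 9 of 20 genes were up-regulated, among them 2 aurora kinase genes, 2 survivin-type genes and nusap1, a microtubule bundler. The 9 became none without Str-3, 2 without Rec-2, 3 without Str-1 and 4 without Str-2. The level of nusap1 was 0.966, 1.47 and 0.842 FPKM in Str and 3.87, 11.7 and 6.31 FPKM in Rec (log2 fold change 2.89 ± 0.51, adjusted p = 0.014, 0.061 without Str-3). Several of these levels were low, and the licensing factor mcm5 was below 1 FPKM in every Str fish (0.292, 0.286 and 0.129 FPKM, against 1.68, 2.67 and 12.6 FPKM in Rec, log2 fold change 4.59 ± 0.94, adjusted p = 0.022, up to 0.089).

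Some genes of the cortisol and fasting response fell. Of 19 table rows in a list of cortisol and fasting responses, 7 were down-regulated, 12 not called and none up-regulated, with a median log2 fold change of -1.71 (3 down-regulated without Str-3 and 4 without Str-2 or Rec-2). Pyruvate dehydrogenase kinase 2 (LOC113638998), which is not on that list and keeps pyruvate out of the citrate cycle, was at 429, 670.0 and 459 FPKM in Str and 37.8, 9.36 and 5.8 FPKM in Rec (log2 fold change -4.78 ± 0.79, adjusted p = 0.012). The transcription factor C/EBP beta (LOC113655797), a member, was at 191, 326 and 157 FPKM in Str and 17.3, 13.7 and 35.4 FPKM in Rec (log2 fold change -3.29 ± 0.43, adjusted p = 0.0077). Both were stable, and their Ctrl fish were at 11.8 to 41.02 FPKM and 15.7 to 31.6 FPKM. The transcription factor klf9, a glucocorticoid target in many vertebrates, was at 54.3, 137 and 73.9 FPKM in Str and 18.2, 3.92 and 6.74 FPKM in Rec (log2 fold change -3.13 ± 0.58, adjusted p = 0.017, 0.0529 without Str-3).

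The insulin-like growth factor-binding protein 1 gene (LOC113664030), which holds back growth factor and rises in catabolic states in fish, was at 158, 309.9 and 195 FPKM in Str and 34.7, 23.5 and 25.7 FPKM in Rec (log2 fold change -2.88 ± 0.46, adjusted p = 0.011). The mitochondrial carrier ucp2 was at 365, 491 and 248 FPKM in Str and 56.5, 70.3 and 62.5 FPKM in Rec (log2 fold change -2.42 ± 0.34, adjusted p = 0.0082), and hypoxia-inducible factor 3 alpha (LOC113643670), a member of the oxygen-sensing family, at 122, 163 and 170.2 FPKM in Str and 38.6, 21.6 and 26.8 FPKM in Rec (log2 fold change -2.28 ± 0.30, adjusted p = 0.0077). These 3 calls were stable and the groups did not overlap, as in 708 of the 709 falls. Other genes of the cortisol and fasting list did not pass. They included the kinase gene sgk1 (11.4 to 69.5 FPKM in Str, 17.7 to 153 FPKM in Rec, adjusted p = 0.6), the transcription factor gene foxo1 (adjusted p = 0.27), pdk4 (12.2 to 33.3 FPKM in Str, 17.9 to 36.5 FPKM in Rec, adjusted p = 0.54), cebpd (314 to 605 FPKM, 67.99 to 184 FPKM, adjusted p = 0.0516) and the muscle-wasting ubiquitin ligase fbxo32 (82.6 to 255 FPKM, 11.6 to 57.4 FPKM, adjusted p = 0.093). The list holds another Sgk1 kinase gene, for which the value of sgk1 does not speak. In phosphoenolpyruvate carboxykinase (LOC113648560), of glucose synthesis, Str-2 alone was high (76.5, 789 and 69.1 FPKM in Str, 76.6, 106 and 158 FPKM in Rec, adjusted p = 0.35).

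A pair of autophagy genes fell. The starter kinase ulk2 was at 21.2, 25.1 and 38.9 FPKM in Str and 3.22, 1.29 and 1.89 FPKM in Rec (log2 fold change -3.63 ± 0.49, adjusted p = 0.0082). The autophagosome protein LC3 (LOC113639121) was at 170.5, 159 and 189 FPKM in Str and 37.6, 27.7 and 19.3 FPKM in Rec (log2 fold change -2.48 ± 0.35, adjusted p = 0.0082). Both were stable. They were the 2 down-regulated genes of the 41 in the KEGG list of autophagy regulation, in which none was up-regulated and the median log2 fold change was -0.02. That share, 4.88%, was near the 4.11% down-regulated over all genes, so the list as a whole did not stand out.

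Genes of nitrogen handling went both ways. Of the KEGG pathways with 10 to 500 tested genes, arginine biosynthesis had the largest share of down-regulated genes, 5 of 23 (21.7%), with 1 up-regulated. Without Str-3 these were 2 and none, and without Ctrl-3, Str-2, Rec-1 or Rec-2 there were 3 down-regulated. The 1 became 2 without Str-2 or Rec-1 and 3 without Rec-3. The KEGG nitrogen metabolism list, which shares glutamine synthetase and glutamate dehydrogenase with it, had 5 of 19 up-regulated (26.3%) and 2 down-regulated, with a median log2 fold change of 0.75. Of the 5 that rose, 3 were carbonic anhydrase genes. The 5 became none without Str-3, 1 without Str-2, Rec-2 or Rec-3, 2 without Ctrl-3 and 3 without Ctrl-2 or Str-1, and the 2 became none without Ctrl-3, Str-2, Str-3, Rec-1 or Rec-2 and 1 without Ctrl-1, Str-1 or Rec-3. Argininosuccinate synthase, ass1, which makes the precursor of arginine, was at 40.8, 67.1 and 96.1 FPKM in Str and 4.94, 2.72 and 6.33 FPKM in Rec (log2 fold change -3.79 ± 0.39, adjusted p = 0.0039), and glutaminase (LOC113661266), which frees ammonia from glutamine, was at 16.8, 13.5 and 18.01 FPKM in Str and 3.22, 3.21 and 3.16 FPKM in Rec (log2 fold change -2.21 ± 0.22, adjusted p = 0.0039). Both were stable. Mitochondrial arginase, arg2, was at 45.4, 27.8 and 70.9 FPKM in Str and 8.67, 2.2 and 10.1 FPKM in Rec (log2 fold change -2.72 ± 0.53, adjusted p = 0.019, 0.066 without Str-3).

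Glutamine synthetase (LOC113642972), which binds ammonia, was at 89.4, 67.6 and 82.3 FPKM in Str and 3.74, 4.16 and 23.02 FPKM in Rec (log2 fold change -2.92 ± 0.66, adjusted p = 0.03, up to 0.09). The member of the arginine list that rose was glutamate dehydrogenase (LOC113653483), which joins glutamate to the citrate cycle, at 66.2, 59.6 and 61.3 FPKM in Str and 511, 455 and 304 FPKM in Rec (log2 fold change 2.90 ± 0.45, adjusted p = 0.01, 0.0521 without Str-3). Glutaminase, ass1 and glutamine synthetase thus lay lower, and glutamate dehydrogenase higher, in every Rec fish than in any Str fish.

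**Figure D5:**
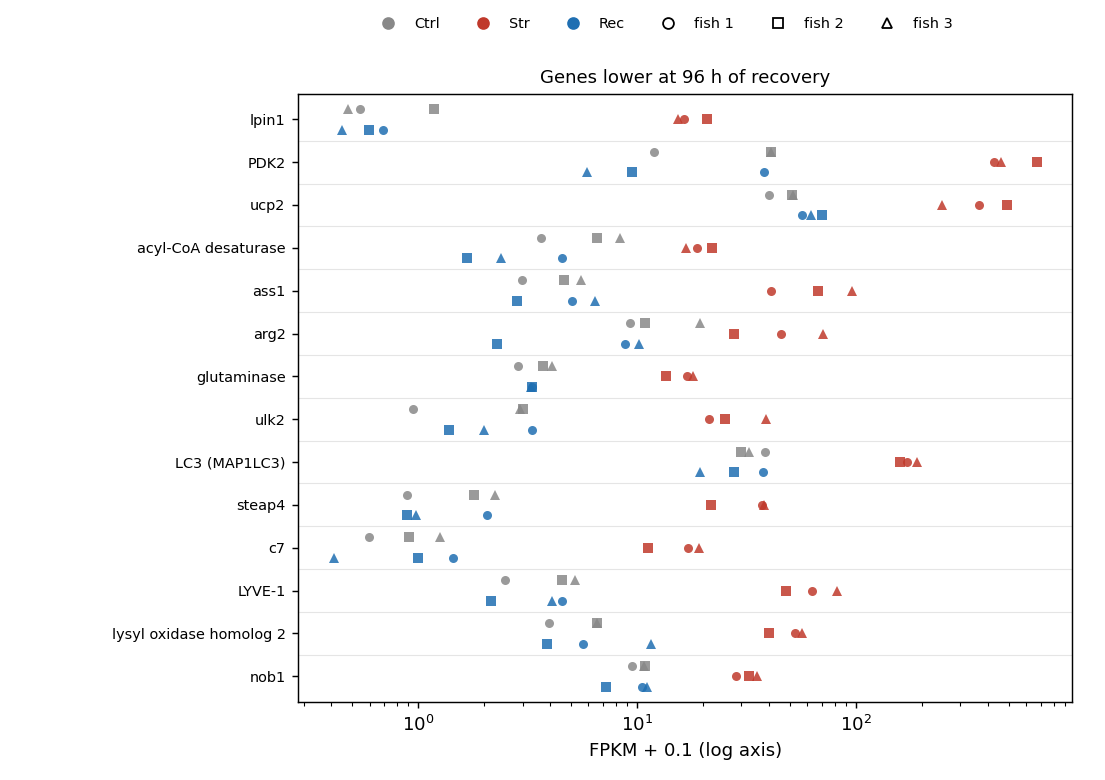
Level of 14 genes lower at 96 h of recovery in each fish (x axis, FPKM + 0.1, log axis), with colours for Ctrl, Str and Rec and symbols for the fish. In each gene every Rec fish lies below every Str fish, for example in ass1 with 40.8 to 96.1 FPKM in Str and 2.72 to 6.33 FPKM in Rec.

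Some genes of ribosome assembly fell. In the KEGG list of ribosome biogenesis, 14 of 126 genes were down-regulated (11.1%) and none up-regulated, with a median log2 fold change of -0.43, and in the GO class snoRNA binding 4 of 13 were down-regulated (11 without Rec-3, none without Str-1, Str-3, Rec-1 or Rec-2, 1 without Ctrl-3 and 2 without Ctrl-2 or Str-2). The endonuclease nob1, which trims the small subunit RNA, was at 28.1, 32.3 and 35.3 FPKM in Str and 10.5, 7.08 and 11.04 FPKM in Rec (log2 fold change -1.65 ± 0.22, adjusted p = 0.0078). The cyclase-like factor rcl1 was at 51.5, 76.1 and 56.01 FPKM in Str and 18.5, 11.8 and 13.8 FPKM in Rec (log2 fold change -1.95 ± 0.29, adjusted p = 0.0089). Both were stable. A nucleolar factor, wdr43, was at 43.6, 45.97 and 47.1 FPKM in Str and 20.6, 11.1 and 16.4 FPKM in Rec (log2 fold change -1.41 ± 0.24, adjusted p = 0.013, 0.0536 without Str-3). The count of 14 was 31 without Rec-3, 2 without Str-3, 3 without Str-1 or Rec-2, 6 without Str-2, 7 without Ctrl-3, 8 without Rec-1 and 9 without Ctrl-2. Among the 163 genes of the KEGG ribosome list 4 were up-regulated and 1 down-regulated, with a median of -0.05.

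Some immune genes rose and others fell. In the KEGG list of cytokine-cytokine receptor interaction 21 of 237 genes were up-regulated (8.86%) and 11 down-regulated (4.64%). In the GO class immune response 19 of 170 were up-regulated (11.2%) and 8 down-regulated (4.71%). Over all genes 5.03% were up-regulated and 4.11% down-regulated, so the shares of falls in both lists lay near that over all genes. The rises numbered 5 and 3 without Str-3, 8 and 8 without Rec-2, and 10 and 8 without Str-1. C-C motif chemokine 25 (LOC113645284), which draws lymphocytes to the gut in mammals, was at 18.2, 14.6 and 21.01 FPKM in Str and 123, 56.8 and 380.0 FPKM in Rec (log2 fold change 3.41 ± 0.75, adjusted p = 0.028, up to 0.099 with a library left out). A T cell receptor beta chain (LOC113659468) was at 2.24, 2.49 and 2.86 FPKM in Str and 7.77, 10.4 and 11.7 FPKM in Rec (log2 fold change 2.09 ± 0.31, adjusted p = 0.009, stable), with Ctrl fish at 16.1 to 33.1 FPKM. The T cell marker cd3e was at 3.99, 4.36 and 3.76 FPKM in Str and 10.05, 7.41 and 17.5 FPKM in Rec (log2 fold change 1.60 ± 0.36, adjusted p = 0.028, up to 0.11). In the T and NK cell marker list 3 of 17 genes were up-regulated (none without Str-3, 1 without Str-1, Str-2 or Rec-3) and none down-regulated, with a summed level of 28.81 to 32.91 FPKM in Str and 45.01 to 102.2 FPKM in Rec, and the part of lymphocyte numbers in these rises was not tested.

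A tumor necrosis factor gene (LOC113662866) rose (7.76 to 8.3 FPKM in Str, 20.5 to 26.3 FPKM in Rec, log2 fold change 1.68 ± 0.29, adjusted p = 0.013, 0.06 without Str-3), and 5 of 13 genes of the GO class tumor necrosis factor receptor binding were up-regulated (none without Str-3, 1 without Str-2 or Rec-2, 2 without Ctrl-2 or Str-1 and 3 without Ctrl-3 or Rec-1). A STAT transcription factor (LOC113661254), of cytokine signalling, was at 2.49, 2.13 and 1.72 FPKM in Str and 18.9, 9.41 and 11.3 FPKM in Rec (log2 fold change 2.74 ± 0.41, adjusted p = 0.009, stable), and the scavenging protein lgals3bp at 17.1, 15.7 and 13.7 FPKM in Str and 162, 139 and 109 FPKM in Rec (log2 fold change 3.26 ± 0.46, adjusted p = 0.0082, stable). In contrast, IL-1 beta (LOC113638324), an early inflammatory cytokine, was at 2.69, 12.4 and 8.42 FPKM in Str and 0.975, 1.11 and 1.36 FPKM in Rec (log2 fold change -2.66 ± 0.59, adjusted p = 0.027, up to 0.088). None of the interleukin-8-like genes passed, and the most abundant (LOC113662975) was at 9.1, 18.2 and 7.7 FPKM in Str and 2.16, 1.32 and 13.2 FPKM in Rec (adjusted p = 0.42).

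Other immune genes fell. The C-type lectin CLEC4E (LOC113643665), a receptor for glycolipids on macrophages in mammals, was at 215, 218 and 236 FPKM in Str and 18.05, 7.33 and 6.74 FPKM in Rec (log2 fold change -4.27 ± 0.43, adjusted p = 0.0039). Complement component c7, of the membrane attack complex, was at 16.98, 11.1 and 19.1 FPKM in Str and 1.34, 0.893 and 0.31 FPKM in Rec (log2 fold change -4.06 ± 0.57, adjusted p = 0.0082). The checkpoint protein CD276 (LOC113656427) was at 19.04, 17.2 and 21.6 FPKM in Str and 2.85, 1.53 and 2.45 FPKM in Rec (log2 fold change -2.99 ± 0.30, adjusted p = 0.0039). All 3 were stable and had Ctrl fish at 13.01 to 17.6, 0.497 to 1.16 and 2.75 to 3.31 FPKM. In the KEGG list of complement and coagulation 10 of 65 genes were down-regulated (15.4%) and 2 up-regulated. Without Str-3 these were 1 and none, without Rec-2 they were 2 and none, without Str-1 they were 4 and 1, and without Ctrl-3, Str-2 or Rec-3 1 was up-regulated. Another C7 gene (LOC113639728) rose (1.97 to 2.88 FPKM in Str, 6.76 to 9.36 FPKM in Rec, log2 fold change 1.81 ± 0.34, adjusted p = 0.017, up to 0.069). The antimicrobial peptide LEAP-2 (LOC113635119), which also blocks the ghrelin receptor in mammals, was at 24.3, 24.3 and 15.5 FPKM in Str and 0.087, 0.098 and 0.116 FPKM in Rec (adjusted p = 0.017, up to 0.062). Its Ctrl fish spread from 3.14 to 197 FPKM, and no fold is given because its Rec counts lay at or under the floor of 12 counts per library (3 read pairs).

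Matrix and junction genes changed in both directions too. In ECM-receptor interaction 16 of 126 genes were down-regulated (12.7%) and 12 up-regulated. The 16 became 4 without Str-3, 7 without Rec-2 and 10 without Str-1. The 12 became 3 without Str-3, 4 without Str-1 or Rec-2 and 6 without Str-2. The hyaluronan receptor LYVE-1 (LOC113646718), a marker of lymphatic vessels in mammals, was at 62.6, 47.99 and 82.2 FPKM in Str and 4.44, 2.06 and 4 FPKM in Rec (log2 fold change -4.11 ± 0.35, adjusted p = 0.0031). The collagen crosslinker lysyl oxidase homolog 2 (LOC113660897), outside that list, was at 52.5, 40.04 and 56.4 FPKM in Str and 5.55, 3.78 and 11.4 FPKM in Rec (log2 fold change -2.78 ± 0.36, adjusted p = 0.0077). Laminin alpha-2 (LOC113643286), of basement membranes, was at 24.4, 16.4 and 24.1 FPKM in Str and 5.09, 4.53 and 5.39 FPKM in Rec (log2 fold change -1.996 ± 0.24, adjusted p = 0.0072). The fibrillar collagen chain alpha-1(I) (LOC113653604) moved the other way, at 24.2, 11.1 and 29.8 FPKM in Str and 81.5, 112 and 138 FPKM in Rec (log2 fold change 2.47 ± 0.40, adjusted p = 0.012). These 4 calls were stable, and fibroblast markers as a list had 3 of 7 up-regulated (1 without Str-1, Str-2, Str-3 or Rec-2), with sums of 128.4 to 286.1 FPKM in Str and 348.1 to 645.7 FPKM in Rec. The endothelial marker list had none of 6 called.

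In the tight junction list 16 of 276 genes were down-regulated (5.8%) and 8 up-regulated, shares near those over all genes. The 16 became 2 without Str-3, 4 without Rec-2, 8 without Str-2 and 9 without Str-1. Claudin-4 (LOC113653224), a sealing claudin, was at 5.66, 17.2 and 11.3 FPKM in Str and 1.48, 0.69 and 0.513 FPKM in Rec (log2 fold change -3.56 ± 0.60, adjusted p = 0.013, stable), and cldn7 was at 3.63, 8.15 and 3.58 FPKM in Str and 0.499, 0.128 and 0.701 FPKM in Rec (log2 fold change -3.49 ± 0.69, adjusted p = 0.02, up to 0.058). For both genes the Ctrl fish, at 6.16 to 14.5 FPKM and 0.606 to 1.91 FPKM, were above the Rec range in claudin-4 and overlapped it in cldn7.

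Secretory and excitable cells gave a small set of falls. The granule proteins scg3 and scg2, of endocrine cells and neurons, were at 27.2, 49.6 and 61.6 FPKM in Str and 12.99, 6.57 and 10.6 FPKM in Rec (log2 fold change -2.11 ± 0.34, adjusted p = 0.012, stable) and at 17.5, 22.4 and 39.6 FPKM in Str and 9.43, 3.64 and 4.78 FPKM in Rec (log2 fold change -2.05 ± 0.43, adjusted p = 0.025, up to 0.087). In the GO class of the voltage-gated calcium channel complex 4 of 13 genes were down-regulated (none without Str-3, 1 without Rec-2 or Rec-3 and 2 without Str-2 or any Ctrl fish), the most abundant being a T-type channel subunit (LOC113643992, 8.76, 10.3 and 17.4 FPKM in Str and 3.03, 1.42 and 2.16 FPKM in Rec, log2 fold change -2.36 ± 0.41, adjusted p = 0.013, 0.0529 without Str-3). The hormone peptide YY (LOC113662151), of the gut's endocrine cells, was highest in Rec-2, and Rec-3 lay within the Str range (3.33, 0 and 1.55 FPKM in Str, 18.4, 134 and 3.08 FPKM in Rec, adjusted p = 0.092). Of 9 markers of endocrine cells and neurons, 2 were down-regulated and none up-regulated.

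Some stable calls fell outside these groups. The mitochondrial peroxiredoxin prdx3, which removes hydrogen peroxide, was at 32.2, 29.7 and 31.3 FPKM in Str and 106, 168 and 178 FPKM in Rec (log2 fold change 2.41 ± 0.33, adjusted p = 0.0082). The peroxisomal sarcosine oxidase pipox was at 3.91, 6.29 and 2.63 FPKM in Str and 32.7, 26.7 and 26.6 FPKM in Rec (log2 fold change 2.85 ± 0.39, adjusted p = 0.0082). Prenylcysteine oxidase, pcyox1, which breaks down prenylated cysteine, was at 9, 13.7 and 8.26 FPKM in Str and 63.2, 59.5 and 61.3 FPKM in Rec (log2 fold change 2.68 ± 0.36, adjusted p = 0.008). In these 3 enzymes every Rec fish lay above every Str fish, as in 862 of the 868 rises. On the falling side, selenon, a selenoprotein of the endoplasmic reticulum, was at 12.8, 12.5 and 26.9 FPKM in Str and 1.75, 1.4 and 2.95 FPKM in Rec (log2 fold change -3.01 ± 0.37, adjusted p = 0.0072). A ribosomal protein S6 kinase (LOC113661413), of growth signalling, was at 17.7, 23.1 and 46.7 FPKM in Str and 6.9, 5.94 and 5.56 FPKM in Rec (log2 fold change -2.12 ± 0.37, adjusted p = 0.014). No Rec fish reached a Str fish in either gene, as in 708 of the 709 falls, so this is no separate support.

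A few other genes were low in Str. A ribonuclease inhibitor-like gene (LOC113648435) had no count in any Str fish and 15.1, 7.43 and 1.59 FPKM in Rec, at least 29.1-fold higher against a floor of 12 counts per library (adjusted p = 0.024, up to 0.071 with a library left out). A natterin-3-like gene (LOC113637596), related to a fish venom protein, was at 0.827, 0 and 0.265 FPKM in Str and 12.3, 778 and 13.2 FPKM in Rec (adjusted p = 0.0449, up to 0.16), with Rec-2 far above the others. Trehalase, treh, which splits the sugar trehalose at the brush border, was at 1.09, 0.254 and 0.074 FPKM in Str and 8.22, 86.1 and 8.05 FPKM in Rec (adjusted p = 0.035, up to 0.11), again highest in Rec-2. The beta subunit of interleukin-12 (LOC113647600) was at 0.37, 0.753 and 2.77 FPKM in Str and 4.5, 9.1 and 8.67 FPKM in Rec (log2 fold change 2.66 ± 0.68, adjusted p = 0.042, up to 0.11).

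Signalling and housekeeping lists are set beside the shares over all genes, 5.03% up-regulated and 4.11% down-regulated. MAPK signalling had 27 of 402 genes down-regulated (6.72%) and 12 up-regulated (2.99%). FoxO signalling had 15 of 263 (5.7%) and 8 (3.04%), and focal adhesion 24 of 357 (6.72%) and 13 (3.64%). Insulin signalling had 10 of 216 (4.63%) and 7 (3.24%), and mTOR signalling 6 of 121 (4.96%) and 2 (1.65%). The protein processing list of the endoplasmic reticulum had 16 of 310 up-regulated (5.16%) and 4 down-regulated (1.29%), and lysosome 9 of 200 (4.5%) and 8 (4%). Ubiquitin-mediated proteolysis had 10 of 271 (3.69%) and 5 (1.85%), and the proteasome 3 of 64 (4.69%) and none. Without Str-3 the falls numbered 1 in MAPK, 5 in FoxO, 4 in focal adhesion, 1 in insulin and 4 in mTOR signalling, and the rises 2 in protein processing, 1 in ubiquitin-mediated proteolysis and none in the lysosome and proteasome lists. Without Rec-2 the same counts were 5, 6, 7, 0 and 4, and 4, 3, 3 and 0, while the proteasome list had 11 rises without Rec-1. Apoptosis had 5 of 71 up-regulated (7.04%) and 4 down-regulated (5.63%). Among the latter dffa, an inhibitor of the DNA-cutting nuclease of dying cells, was at 28.1, 44.8 and 29.9 FPKM in Str and 4.46, 5.36 and 10.3 FPKM in Rec (log2 fold change -2.28 ± 0.34, adjusted p = 0.0087, stable). The liver, erythrocyte and endothelial marker lists had no called gene. B and plasma cell markers had 2 of 31 up-regulated (6.45%) and 1 down-regulated (3.23%), and myeloid markers had 3 of 11 up-regulated (27.3%). The 2 became 1 without Ctrl-1, Rec-1 or Rec-3 and none without any other library. The 3 became none without Rec-3 or any Str fish and 1 without Ctrl-2, Ctrl-3 or Rec-2.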

How the data were processed

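The authors extracted RNA from the posterior intestine of single fish with TRIzol, sequenced it on an Illumina NovaSeq and trimmed the reads with Cutadapt, and the submitters' processing notes name HISAT and StringTie. The build was not given in the sources used here, so no coordinates are printed. The deposited table gives each gene's estimated counts and FPKM for each library, FPKM being scaled to transcript length and library size. In it 1 read pair is usually worth 4 counts. The estimated counts were tested with edgeR 4.0.16 (TMM scaling, quasi-likelihood F-test, two-sided) in R 4.3.3 over all 9 libraries. The contrast was Rec minus Str. Benjamini-Hochberg adjustment ran over 17244 genes (FPKM of at least 1 in at least 3 libraries), with calls at an adjusted p below 0.05. The SE was taken as the size of the log2 fold change over the root of F. The code was tested on simulated data.

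DESeq2 1.42.0 (on rounded counts) and limma 3.58.1 gave alternatives. Genes and gene lists (53 KEGG and GO lists and 14 marker and 6 role lists) were chosen with earlier results of these data known. Named genes were called, non-overlapping between groups, averaging 5 FPKM or more where they were higher, and with a known product, taken as the 12 largest and 12 most abundant changes per direction, up to 8 switched genes per direction and up to 4 genes of each list, plus role genes whatever their result. Apart from role genes, the lack of overlap in these genes follows from the rule and is no separate support. Genes named from GO classes and from the ranked pathways were chosen after their values were seen. Where a gene stands on several table rows, the row with the highest mean is given. The counting of reads shared by near-identical genes was not given in the sources used here, so the members of multigene families are uncertain. Each group held 3 fish, the transport bag of each was not stated, and p-values measure the spread between these fish. A result withheld for evaluation is not reported here.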

Additional observations from a re-analysis of the deposited data

How the results depend on the processing

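The 1577 genes called in Rec vs. Str became 3193 with DESeq2, 3472 at the study's thresholds (a log2 fold change of 1 or more in size with unadjusted p under 0.05), and 677 with only Str and Rec in the fit. The study's thresholds were applied here to re-analysed values, and the 3472 is not the count of its own DESeq run. Leaving out 1 library at a time gave 247 to 1525 genes, and the replicate block 893. The 868 genes called higher in Rec became 1791, 1949, 380 and, with the replicate block, 518, and 114 to 846 on leaving out a library. The 709 genes called lower in Rec became 1402, 1523, 297 and 375 in the same order, and 133 to 692. The numbers did not pair the fish, since same-numbered Str and Rec libraries correlated at -0.172 to 0.01. Of the 40 highest pathway shares in Rec vs. Str, 26 remained without the FPKM filter, 23 and 25 with limma on log2(FPKM + 1) and log2(FPKM + 0.1), 18 with only Str and Rec, 17 with the replicate block, 26 at the study's threshold, and 7 to 28 on leaving out a library. No named gene that was called reversed its direction under any of these alternatives. Most had been named only if Str and Rec did not overlap, so a reversal was hardly possible. DESeq2 retained 1569 of the 1577 calls and RLE scaling 1545. The cause of these differences was not tested. The fits that leave out a library also hold fewer fish.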
